A study of Mus musculus with 6 samples.

Results

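The genes described here are 10 members of the Bcl2 family, which set the threshold for apoptosis at the mitochondrion: the survival genes Mcl1, Bcl2 and Bcl2l1, the initiator genes Bcl2l11, Bbc3, Pmaip1, Bid and Bad, and the effector genes Bax and Bak1. They were chosen by symbol, all 10 were found in the RefSeq table of GRCm38.p6 (the assembly behind mm10) among 49554 genes on chromosomes 1 to 19 and X, and every peak that overlapped a member or the 20 kb either side of it was taken. The peaks came from ATAC-seq (open DNA is cut and tagged by the transposase Tn5) of hematopoietic stem cells sorted from bone marrow as Lin-Sca-1+c-Kit+CD48-CD150+, about 20000 cells, per the labels. All mice were C57BL/6, 12 weeks old by the treatment label (3 months by the age label), in steady state, and carried loxP-flanked Dek alleles (Dekfl/fl). By the labels, the 3 Dek_fl libraries had no Cre. The 3 Dek_cKO libraries also carried, by the labels, Tie2-Cre, whose Tie2 (Tek) control DNA is active in blood and endothelial cells from early development, so Dek, a chromatin-bound nuclear protein, is a target in both lineages. Whether each library had its own mice is not stated in the labels, so the p-values reflect library-to-library spread that may be technical. Where 3 values stand together they are in the order of replicates 1, 2 and 3.

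In this pathway the survival proteins hold the effectors Bax and Bak in check. Initiator proteins, which carry only the short BH3 helix of the family, are made or activated under stress, occupy the survival proteins or engage the effectors directly, and the effectors then open the outer mitochondrial membrane and release cytochrome c to the caspases. Blood stem cells are known to depend on Mcl1, which is turned over rapidly, and Bbc3 (Puma) and Pmaip1 (Noxa) are textbook targets of p53.

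Peaks lay over the start sites of all 10 genes, so the sequences just before the start sites are shown first for the 3 survival genes, for 2 initiators and for 1 effector. RefSeq promoters of GRCm38.p6 were matched for 9 of the 10 genes (15 start sites). The 250 bases before a start site are printed, 5′ to 3′ on the strand of the gene. Capitals mark matches, on either strand, to the motifs of the SP, ETS, FOXO, RUNX, GATA, CREB, NRF1, p53 and CTCF factors, which are spelled out with their counts after the sequences.
Mcl1, chr3:95658471-95658720, plus strand: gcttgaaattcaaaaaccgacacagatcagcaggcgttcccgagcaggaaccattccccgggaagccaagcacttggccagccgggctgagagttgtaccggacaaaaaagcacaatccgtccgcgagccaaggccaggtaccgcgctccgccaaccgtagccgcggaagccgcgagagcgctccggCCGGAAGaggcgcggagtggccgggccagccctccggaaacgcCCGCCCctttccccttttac
Bcl2, chr1:106714291-106714540, minus strand: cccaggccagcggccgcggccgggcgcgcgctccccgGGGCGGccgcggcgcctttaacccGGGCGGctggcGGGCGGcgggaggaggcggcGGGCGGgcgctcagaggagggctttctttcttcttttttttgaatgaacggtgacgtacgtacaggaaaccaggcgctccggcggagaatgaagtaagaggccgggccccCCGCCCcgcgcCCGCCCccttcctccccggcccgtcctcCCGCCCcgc
Bcl2l1, chr2:152831729-152831978, minus strand: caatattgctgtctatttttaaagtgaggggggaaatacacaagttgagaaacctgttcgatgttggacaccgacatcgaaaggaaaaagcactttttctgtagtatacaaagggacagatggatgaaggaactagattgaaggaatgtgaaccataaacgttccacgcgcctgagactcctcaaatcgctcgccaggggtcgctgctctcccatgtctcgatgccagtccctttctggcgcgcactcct
Bcl2l11, chr2:128125788-128126037, plus strand: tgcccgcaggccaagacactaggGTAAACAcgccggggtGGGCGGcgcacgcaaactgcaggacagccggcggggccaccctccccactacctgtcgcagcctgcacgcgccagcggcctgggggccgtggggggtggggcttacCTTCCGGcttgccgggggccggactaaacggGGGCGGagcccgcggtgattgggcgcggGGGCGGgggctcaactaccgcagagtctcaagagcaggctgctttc
Bbc3, chr7:16310011-16310260, plus strand: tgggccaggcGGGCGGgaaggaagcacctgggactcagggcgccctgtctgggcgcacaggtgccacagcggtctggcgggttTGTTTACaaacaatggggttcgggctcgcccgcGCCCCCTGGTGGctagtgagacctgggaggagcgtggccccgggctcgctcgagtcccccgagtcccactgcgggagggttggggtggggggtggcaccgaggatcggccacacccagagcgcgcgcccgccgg
Bax, chr7:45466899-45467148, minus strand: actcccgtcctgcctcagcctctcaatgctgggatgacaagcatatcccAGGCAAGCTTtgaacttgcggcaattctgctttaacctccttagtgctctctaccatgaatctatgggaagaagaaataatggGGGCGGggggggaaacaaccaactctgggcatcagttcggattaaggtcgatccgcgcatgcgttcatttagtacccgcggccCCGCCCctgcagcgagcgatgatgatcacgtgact

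Base composition differed among these promoters. In the printed sequences the 250 bases held 74.8% G and C with 36 CpG at Bcl2. They held 72.0% with 24 CpG at Bcl2l11, 72.4% with 23 CpG at Bbc3 and 64.4% with 26 CpG at Mcl1. The medians over 32619 promoters were 52.4% and 6 CpG. At the printed Bcl2l1 start they held 47.6% with 12 CpG, and at Bax 54.0% with 14 CpG. The other Bbc3 starts held 76.4% with 27 CpG and 81.6% with 37. The other Bcl2l11 start held 73.2% with 30 CpG, and the other Bcl2l1 starts 48.4% with 0 and 53.2% with 11. Values at Bid (63.6%, 18 CpG) and before the Bad starts (62.8% and 64.8%, 21 and 18 CpG) lay between those at Bax and Bcl2l11. At Bak1 the value was 58.4% with 8 CpG. The SP motif, GGGCGG, matched 10 of the 15 member promoters (33.0% of all promoters), in Mcl1, Bcl2, Bcl2l11, Bbc3, Bax, Bid and Bad, with 7 matches in the Bcl2 sequence and several that overlap one another at another Bbc3 start. An ETS motif, spelled CCGGAAG here, matched in Mcl1 and Bcl2l11 (6.96% of all promoters). The FOXO motif used was GTAAACA, with matches in Bcl2l11 and Bbc3 (3.19%). A p53 decamer matched in Bax alone (7.12%), where it spans -201 to -192 from the start site, and the CTCF consensus in Bbc3 alone (0.512%). For RUNX, searched as TGTGGT, the match was in Bak1 alone (13.9%). For GATA, searched as AGATAA, it was in Bcl2l1 alone (10.0%), before the start at 152828489, which is not the one printed. The CREB motif TGACGTCA (1.56% of all promoters) and the NRF1 motif (0.788%) matched in 0 of the 15. A match is a description of letters and shows no binding.

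Several facts of the whole data set bear on the values that follow. The lists held 52451, 71555 and 23813 peaks in the Dek_fl libraries and 70756, 73173 and 27170 in the Dek_cKO libraries. Read depth is unknown, since only peak calls were analysed. Both replicate 3 lists carried a score derived from p where the other 4 had one derived from q, had a stricter lowest -log10 p (5.07 and 5.02 against 2.87 to 3.13) and narrower peaks (median 559 and 526 bp against 754 to 971 bp), so the replicate number also marks a way of list making, shared by the groups. The 1 region at Dek itself (chromosome 13, 47104846 to 47107066) was called in all 6 libraries, with folds of 4.13, 4.39 and 10.8 in Dek_fl and 5.13, 4.26 and 10.1 in Dek_cKO, and it does not check the deletion, whose position the labels do not give. A peak in the body of Tek, from 94745330 to 94746933 on chromosome 4, was called in all 3 Dek_fl and 0 Dek_cKO libraries, and at the region over the Tek start -log10 p was 260, 576 and 56.6 in Dek_fl and 32.9, 20.5 and 8.59 in Dek_cKO. The stronger signal at the gene whose control DNA drives the Cre was thus in the libraries labelled as without it. Whether the genotype labels are exchanged was not tested, and each direction below is between the libraries labelled Dek_fl and those labelled Dek_cKO. Of 11 stem and progenitor marker genes, 4 (Kit, Meis1, Runx1 and Cd34) had a start-site peak in all 6 libraries, and 10, 11 and 4 had one in the Dek_fl and 10, 10 and 7 in the Dek_cKO libraries. Of other lists, 0 of 4 B cell, 0 of 4 T cell, 0 of 5 neutrophil and monocyte, 2 of 5 endothelial and 3 of 4 erythroid genes had one in all 6. The T cell genes Cd3e and Cd3g and the B cell genes Cd79a and Ms4a1 had a start-site peak in 0 libraries. The same held for the neutrophil genes Elane and Ly6g and endothelial Cdh5, whereas endothelial Kdr and Tek had one in all 6. The part of other cells in the results was not tested.

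The 10 gene windows held 89 merged regions of 84592 in the genome: 10 at start sites, 33 elsewhere in the genes and 46 in the flanks. Of these 27 (30.3%) were called in all 6 libraries, where 23.3% of all regions were. All 10 start-site regions, 4 of the 33 gene-body regions and 13 of the 46 flanking regions were among the 27. The windows were dense in peaks, with a median over the members of 11.9 regions per 100 kb against 6.21 over 21631 protein-coding genes. Bak1 (16.4 per 100 kb), Bad (16.0) and Bax (15.5) stood above 95% of these genes and Bid (6.26) near their middle, at the 50.3 percentile. By number alone Bcl2 stood at the 99.4 percentile with 25 regions, in a window of 216115 bp.

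All 10 members, or 100%, had a peak within 1 kb of a start site in every library, against 50.4% of protein-coding genes. In a bulk library a weaker opening in every cell and an open site in fewer cells cannot be told apart. Each value below is the authors' fold of the peak summit over local background, or the percentile of that fold within the library's own list. Because replicate 3 lists hold fewer and narrower peaks, percentiles are best read within replicates 1 and 2 or within replicate 3.

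**Figure D1:**
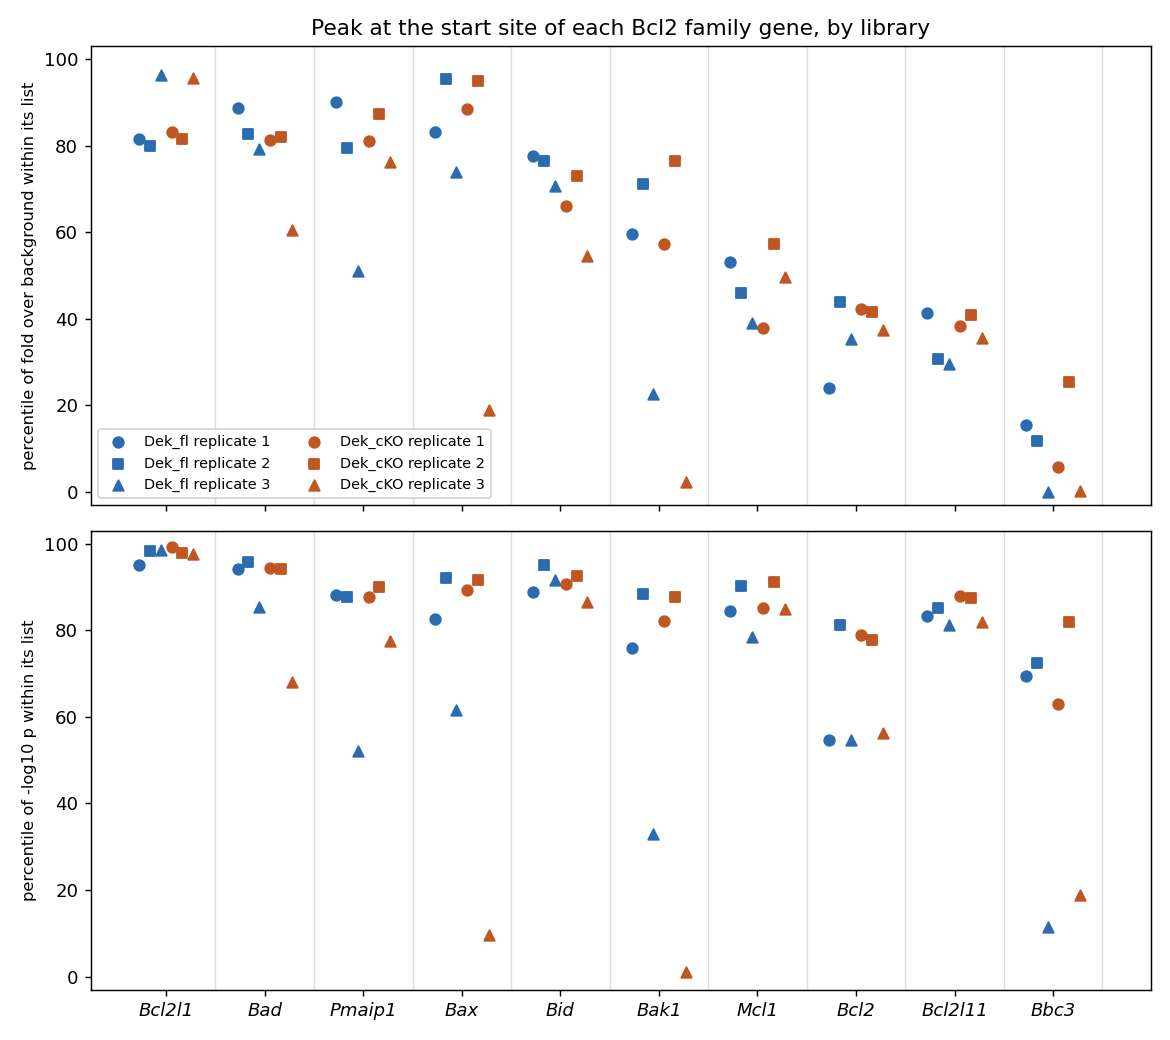
Percentile, within its own list, of the start-site peak of each gene (x axis, ordered by mean) by fold over background (upper panel, 0 to 100) and by -log10 p (lower panel, 0 to 100); blue marks are Dek_fl, orange Dek_cKO, and circles, squares and triangles are replicates 1, 2 and 3. Bcl2l1 stood at 79.9 to 96.2 by fold and Bbc3 at 0.084 to 25.3, and the Dek_cKO replicate 3 marks of Bax and Bak1 lie far under those of replicates 1 and 2.

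Among the survival genes, Bcl2l1 (gene ID 12048, chromosome 2 from 152758732 to 152833803), which encodes Bcl-xL, had the highest mean percentile of the 10 at its start site, a place that rests on the replicate 3 lists: Bax ranked above it in all 4 libraries of replicates 1 and 2. Its fold was 6.43, 6.58 and 14.7 in the Dek_fl libraries and 7.75, 8.15 and 15.3 in the Dek_cKO libraries. Its percentiles of fold were 81.6, 79.9 and 96.2 in Dek_fl and 83.2, 81.6 and 95.7 in Dek_cKO, so the groups overlapped and the replicate 3 libraries were highest in both. The peak was 1089 to 1389 bp wide and covered the start site at 152831728 in all 6 libraries and that at 152830717 in all other than Dek_fl replicate 3, and its summits lay 70 to 480 bp past the nearer start.

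Mcl1 (gene ID 17210, chromosome 3 from 95656944 to 95663179) had a moderate summit on its annotated promoter. Its fold was 4.53, 4.35 and 7.03 in the Dek_fl libraries and 4.35, 5.84 and 8.28 in the Dek_cKO libraries. Within their lists these folds stood at the percentiles 53, 45.9 and 39.0 in Dek_fl and 37.9, 57.3 and 49.7 in Dek_cKO, overlapping sets around the middle of each list. By -log10 p the same peaks stood higher, at 78.4 to 91.3. The summits fell between -78 and 27 bp from the start site (negative is before it), beside the ETS and SP matches of the sequence above (-63 to -57 and -20 to -15).

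At Bcl2 (gene ID 12043, chromosome 1 from 106538176 to 106714290, minus strand), named for the B cell lymphoma translocation that turns it on, the start-site region spanned 2944 bp. Its fold was 3.33, 4.26 and 6.77 in the Dek_fl libraries and 4.58, 4.78 and 7.29 in the Dek_cKO libraries. Percentiles of fold ran from 24.1 to 44.0 in Dek_fl and from 37.4 to 42.3 in Dek_cKO. Every Dek_cKO value thus lay inside the Dek_fl range, and Dek_fl replicate 1 was the low one. All 6 summits lay inside the gene, 79 to 209 bp past the start site, and not over the SP-rich bases printed above.

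The initiator genes differed most among themselves. Bcl2l11 (gene ID 12125, chromosome 2 from 128126038 to 128162547), which encodes Bim, the BH3 protein that removes blood cells deprived of growth factor, had a region of 2766 bp over both of its starts. Its fold was 4.01, 3.59 and 6.36 in the Dek_fl libraries and 4.39, 4.69 and 7.14 in the Dek_cKO libraries, at percentiles of 29.4 to 41.4 and 35.4 to 40.8. Both groups overlapped, and all summits lay between -195 and -83 bp from the nearer start. In 5 libraries the highest summit was at the first start, and in Dek_fl replicate 3 it was at the second.

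Bbc3 (gene ID 170770, chromosome 7 from 16308398 to 16318334) had the lowest summit of the 10 genes. Its fold was 3.04, 2.70 and 2.80 in the Dek_fl libraries and 2.62, 3.80 and 3.04 in the Dek_cKO libraries. Percentiles of fold were 15.5, 11.7 and 0.084 in Dek_fl and 5.85, 25.3 and 0.129 in Dek_cKO, so the groups overlapped and both replicate 3 values lay at the bottom of their lists. By -log10 p the same peaks stood at 63.0 to 81.8 in replicates 1 and 2 and at 11.4 and 18.8 in replicate 3. In replicates 1 and 2 the peak was 1523 to 2478 bp wide. A second Bbc3 region, 3.0 kb past the nearest start (the third), was called in all 6 libraries at percentiles of 1.09 to 9.40.

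Pmaip1 (gene ID 58801, chromosome 18 from 66458604 to 66465558) had high start-site peaks. Here the promoter table gave no strand, so either annotated end counted, and the peak lay at the lower one. Its fold was 7.39, 6.53 and 7.93 in the Dek_fl libraries and 7.49, 8.92 and 11.1 in the Dek_cKO libraries. Percentiles were 90.0, 79.4 and 51.0 in Dek_fl and 81.0, 87.2 and 76.3 in Dek_cKO, which overlapped, with Dek_fl replicate 3 lowest.

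Bid (gene ID 12122, chromosome 6 from 120893119 to 120917062), which links death receptors to mitochondria after cleavage by caspase-8, stood at percentiles of 77.7, 76.4 and 70.7 in the Dek_fl libraries. In the Dek_cKO libraries it stood at 66.0, 73.1 and 54.6. The Dek_cKO value was the lower one within replicates 1 and 2 and within replicate 3, while Dek_cKO replicate 2 (73.1) lay above Dek_fl replicate 3 (70.7). The folds behind these were 6.09, 6.28 and 9.82 in Dek_fl and 6.18, 7.21 and 8.68 in Dek_cKO.

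Bad (gene ID 12015, chromosome 19 from 6941861 to 6951905), a BH3 protein that growth factor signalling holds inactive by phosphorylation, shares its start-site region with Gpr137, a neighbour that starts close by. Its percentiles were 88.6, 82.6 and 79.1 in the Dek_fl libraries and 81.2, 81.9 and 60.4 in the Dek_cKO libraries. As at Bid, Dek_cKO was lower within both sets of replicates, and across them the groups overlapped. The folds were 7.21, 6.82 and 10.9 in Dek_fl and 7.51, 8.19 and 9.25 in Dek_cKO, so in replicates 1 and 2 the fold itself was higher in Dek_cKO and its place in the list lower.

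Of the effector genes, Bax (gene ID 12028, chromosome 7 from 45461695 to 45466903) had a narrow start-site peak of 308 to 887 bp. Its fold was 6.59, 8.51 and 10.2 in the Dek_fl libraries and 8.41, 10.5 and 5.95 in the Dek_cKO libraries. In percentile terms Dek_cKO replicate 3 (19) stood far under the other 5 libraries (73.8 to 95.3), and its -log10 p was 8.99 against 25.7 in Dek_fl replicate 3. Bak1 (gene ID 12018, chromosome 17 from 27019812 to 27028627), whose region also lies at an annotated start or end of Ggnbp1, showed the same order in that pair. Its percentiles were 59.5, 71.1 and 22.6 in the Dek_fl libraries and 57.2, 76.4 and 2.39 in the Dek_cKO libraries. Both replicate 3 libraries were low here, the Dek_cKO one most. For both effector genes the low Dek_cKO value rests on 1 library: without it the difference in rank score, defined below, turned to 0.13 at Bax and 0.14 at Bak1.

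Ordered by mean percentile of fold over the 6 libraries, the genes ran from Bcl2l1 (86.4 ± 7.51, SD, n = 6) through Bad (79.0 ± 9.63), Pmaip1 (77.5 ± 13.9), Bax (75.8 ± 29.0), Bid (69.7 ± 8.52), Bak1 (48.2 ± 29.3), Mcl1 (47.1 ± 7.70), Bcl2 (37.5 ± 7.31) and Bcl2l11 (36.0 ± 5.09) to Bbc3 (9.76 ± 9.80). Only the last step exceeded its spread: Bcl2l11 stood above Bbc3 in 6 of 6 libraries, by 26.2 ± 7.76 percentile points. At each of the other 8 steps the mean gap was smaller than its SD over the libraries. Read apart, the lists gave other orders at the top. Over the 4 libraries of replicates 1 and 2, Bax (mean percentile 90.5), Pmaip1 (84.4), Bad (83.6) and Bcl2l1 (81.6) came first. Over the replicate 3 libraries, Bcl2l1 (96.0) came first and Bax (46.4) stood at place 5, while Bbc3 was last in both (14.6 and 0.106). The order by -log10 p differed, with Bcl2l1 (97.8), Bid (90.9) and Bad (88.7) first and Bbc3 (52.8) still last.

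Beyond the promoters, the windows of each role held strong regions, several of them in or at the start of neighbouring genes. In Bcl2 the windows held 19 gene-body regions, and 1 of these was called in all 6 libraries, 86.9 kb into the gene (chromosome 1, 106626803 to 106627913). Its fold was 5.41, 5.86 and 8.75 in the Dek_fl libraries and 6.78, 6.42 and 10.5 in the Dek_cKO libraries. Its percentiles of 60.5 to 73.4 put it above the Bcl2 promoter in every library, and the groups overlapped. A region 26.1 kb into the gene (106687232 to 106689108) was called in all libraries other than Dek_fl replicate 3, with folds of 5.32 and 5.73 in Dek_fl and 5.64, 5.72 and 5.94 in Dek_cKO. One 101.3 kb in (106611952 to 106614095) was called in all libraries other than Dek_cKO replicate 3, with folds of 4.62, 6.12 and 5.88 in Dek_fl and 5.54 and 7.71 in Dek_cKO. Of the 25 Bcl2 regions 19 were in neither replicate 3 list.

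**Figure D2:**
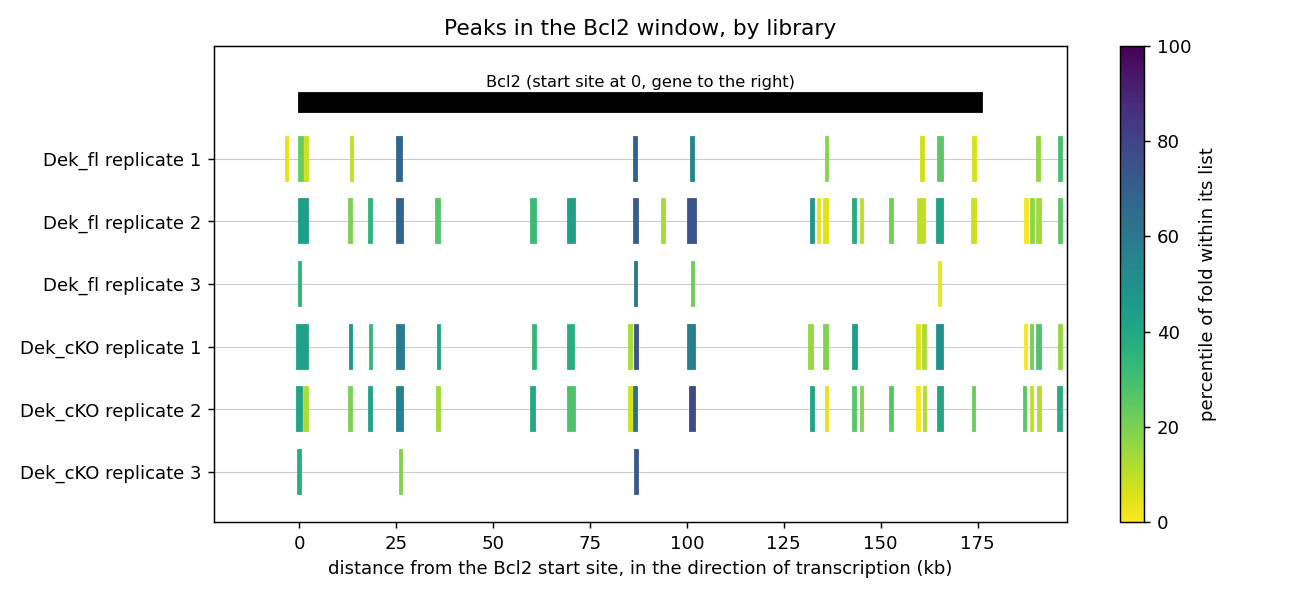
Peaks of each library (rows) in the Bcl2 window by distance from the start site in kb (x axis), coloured by percentile of fold within the list; bars under 0.6 kb are drawn at that width. Replicates 1 and 2 carried 13 to 24 peaks across the window and replicate 3 carried 4 (Dek_fl) and 3 (Dek_cKO), and the peaks at 86.9 kb and at the start site are in all 6 rows.

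In Bcl2l1 a gene-body region 39.3 kb past the nearest start (chromosome 2, 152788292 to 152790063) was called in all 6 libraries. Its percentiles were 83.1, 73.1 and 68.5 in the Dek_fl libraries and 71.7, 69.1 and 75.5 in the Dek_cKO libraries, overlapping sets. The strongest region of the Bcl2l1 window was the start of the neighbour Tpx2, a spindle gene, at a mean percentile of 97.2. Regions of the Bcl2l1 window lay at 61.6 kb (mean percentile 68.8) and at 74.4 kb past the nearest start (67.1). Both were called in replicates 1 and 2 of both groups and in neither replicate 3 list. Each lay within 1 kb of an annotated start or end of Cox4i2. Mcl1 had 3 flanking regions in all 6 libraries, at 13.3 and 6.4 kb before and 16.3 kb past its start. The farthest upstream one (chromosome 3, 95644796 to 95646094) ranked above the promoter in replicates 1 and 2, with percentiles of 83.0 and 86.1 in Dek_fl and 78.0 and 82.0 in Dek_cKO. In replicate 3 it stood at 34.3 and 20.8, under the promoter. The region at 6.4 kb before the start stood at 41.9, 35.6 and 25.7 in Dek_fl and 37.8, 43.6 and 42.0 in Dek_cKO. Another, 10.1 kb past the start, was called in replicates 1 and 2 of both groups and in neither replicate 3 list.

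Around the initiator genes, the highest region of the Pmaip1 window lay 12.7 kb past the upper end (chromosome 18, 66477545 to 66478993). Its folds were 6.99, 7.78 and 10.6 in the Dek_fl libraries and 7.94, 10.6 and 12.7 in the Dek_cKO libraries. At percentiles of 77.3 to 91.1 and 84.9 to 95.5 it ranked above the Pmaip1 start site in 5 of 6 libraries (the exception was Dek_fl replicate 1), and the groups overlapped. A nearer region of that window, 5.7 kb past the upper end, was also in all 6, at 66.1, 58.5 and 34.5 in Dek_fl and 63.4, 68.9 and 16.3 in Dek_cKO. For Bcl2l11 the strongest region outside the promoter lay 52.2 kb past the nearest start (chromosome 2, 128178933 to 128180606), called in all 6 libraries at percentiles of 66.3, 81.1 and 24.4 in Dek_fl and 88.5, 72.1 and 30.6 in Dek_cKO. The Bbc3 window held a strong region inside the neighbour Sae1, 16.0 kb past the nearest Bbc3 start (chromosome 7, 16325796 to 16327019), with percentiles of 80.1 and 94.5 for the first pair of Dek_fl libraries and 94.2, 88.4 and 35.6 in Dek_cKO. It had no call in Dek_fl replicate 3. The Bbc3 region 14.4 kb before the start was called in all 6 libraries, at 57.3, 48.5 and 36.0 in Dek_fl and 50.9, 59.9 and 31.4 in Dek_cKO, overlapping sets. In Bid a gene-body region 14.5 kb past the start (chromosome 6, 120901825 to 120902725) was called in all libraries other than Dek_fl replicate 3, with percentiles of 57.0 and 64.4 in Dek_fl and 66.2, 65.1 and 54.2 in Dek_cKO. In Bad the region at the far end of the gene, 9.2 kb past the nearest start, stood at 75.6, 67.5 and 16.9 in Dek_fl and 77.6, 62.0 and 58.0 in Dek_cKO. The strongest of the Bad window lay at the start of Esrra, which encodes a nuclear receptor, with a mean percentile of 87.3 and a call in all 6 libraries.

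Next to the effector genes, 1 flanking region separated the groups by percentile of fold. It lies 16.2 kb past the Bak1 start (chromosome 17, 27011844 to 27013102), outside annotated protein-coding genes. Its fold was 3.82, 5.71 and 8.46 in the Dek_fl libraries and 6.56, 7.04 and 10.3 in the Dek_cKO libraries. Percentiles were 36.8, 68.5 and 57.3 in Dek_fl and 70.8, 71.4 and 69.9 in Dek_cKO, so the 3 Dek_cKO libraries stood above the 3 Dek_fl libraries. The margin was small, from 68.5 to 69.9, and in lists of equal length 0 regions of the members had Dek_cKO above. Such separation toward Dek_cKO held for 1 of the 27 regions (3.70%) against 2.40% of all shared regions, and toward Dek_fl for 0 of 27 against 0.701%, so the members' share lay near the background. By rank score, defined below, the groups overlapped at the region 16.2 kb past the Bak1 start. Dek_fl replicate 2 stood at -0.36 there and Dek_cKO replicate 2 at -0.38. A region 10.5 kb past the Bak1 start lay at an annotated start or end of Ggnbp1. It stood at 76.5, 95.9 and 14.0 in Dek_fl and at 86.5 and 89.9 in Dek_cKO replicates 1 and 2. In Dek_cKO replicate 3 it had no call. The strongest flanking region of Bax lay 15.4 kb past its start inside Gys1, the glycogen synthase gene of muscle, with percentiles of 86.1 and 79.0 in Dek_fl and 80.4 and 82.4 in Dek_cKO, and in neither replicate 3 list. Near Bax, the start of Ftl1, the ferritin light chain gene, was called in all 6 libraries at percentiles of 22.2 to 50.3.

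To compare the groups over the whole genome, the 19683 regions called in all 6 libraries were ranked by fold within each library. Ranks were turned into a normal score (the rank score, in SD units over these regions) and fitted with limma. A score of 0 is thus the middle of the shared regions, not of the whole list. P-values were adjusted by the Benjamini-Hochberg method across the shared regions, with calls under 0.05. In that fit 0 regions were called higher and 0 lower (0.0% each), with 68 higher (0.345%) and 19 lower (0.0965%) at an unadjusted p under 0.05. When the replicate number entered as a block term, 1 region was called higher (0.00508%) and 0 lower (0.0%), and 2.97% were higher and 1.47% lower at an unadjusted p under 0.05. Of the 27 member regions 0 were called by limma in either fit, and 0 had an unadjusted p under 0.05. The members' differences (Dek_cKO minus Dek_fl) were above 0 in 14 regions and below 0 in 13, with a median of 0.0063 against -0.018 over all shared regions. The fit without the block left the differences between replicate 3 and the other lists in its spread, which widens its SEs (0.28 to 0.67). With the block the SEs were 0.27 to 0.30. With 3 libraries a group, differences of the size seen here were resolved in neither fit.

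**Figure D3:**
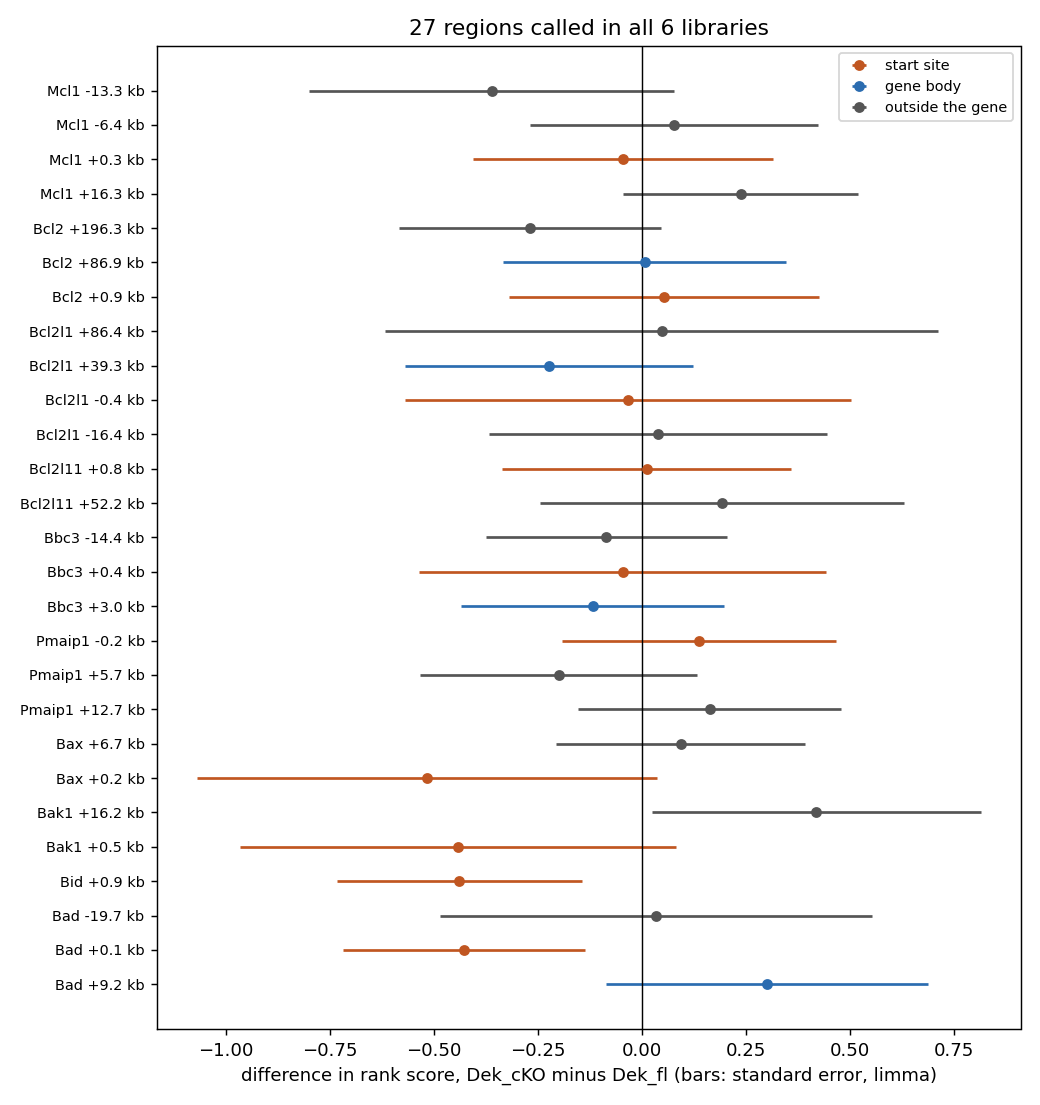
Difference in rank score, Dek_cKO minus Dek_fl (x axis), of the 27 member regions called in all 6 libraries (y axis). Labels give the gene and the distance in kb of the region's middle from the nearest start site, for Pmaip1 from the nearer annotated end. Bars are standard errors from limma, orange points are start sites, blue gene bodies and grey flanks. The points lie between -0.52 and 0.42, and 0 of the 27 passed the threshold.

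At the start sites the differences near 0 were those of the survival genes and of some initiators: -0.045 (SE 0.36) at Mcl1, 0.053 (SE 0.37) at Bcl2, -0.034 (SE 0.54) at Bcl2l1, 0.011 (SE 0.35) at Bcl2l11 and -0.047 (SE 0.49) at Bbc3. Pmaip1 stood at 0.14 (SE 0.33). The 4 largest were negative, at Bax (-0.52, SE 0.55), Bak1 (-0.44, SE 0.52), Bid (-0.44, SE 0.29) and Bad (-0.43, SE 0.29). All 10 had a limma adjusted p of 1.0, also with the block, which lowered the SE to 0.27 to 0.30. Bid and Bad were lower in Dek_cKO in 3 of 3 pairs of the same replicate number, Bax and Bak1 in 2 of 3. A description made after these values were seen asks whether one group lay wholly above the other both within replicates 1 and 2 and within replicate 3. It held toward Dek_fl for 3 of the 27 regions (11.1%, against 8.11% of all shared regions), at the start sites of Bid and Bad and 13.3 kb before Mcl1. Toward Dek_cKO it held for 1 (3.70%, against 6.67%), 16.3 kb past Mcl1, where percentiles were 30.2, 30.0 and 14.3 in Dek_fl and 40.3, 44.8 and 21.6 in Dek_cKO. Both shares are close to the background.

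No member region was called in 3 libraries of a group and 0 of the other: 0 of 89 toward Dek_cKO (0.104% of all regions) and 0 of 89 toward Dek_fl (0.00355%). Regions called in Dek_cKO libraries alone numbered 4 (4.49%, against 13.5% of all regions). These were 85.5 kb into Bcl2 (2 libraries) and 1 region each near Bcl2l11, Pmaip1 and Bad (1 library each). Regions called in Dek_fl libraries alone numbered 5 (5.62%, against 6.18%), of which 3 were in or near Bcl2, 1 was near Bad and 1 was 5.6 kb past the Mcl1 start. The last was called in Dek_fl replicates 2 and 3, at percentiles under 1. Between the replicate 3 lists, 8 member regions (8.99%, against 3.05% of all regions) were called in Dek_fl alone and 4 (4.49%, against 6.84%) in Dek_cKO alone.

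Peaks in the 10 windows numbered 66, 84 and 38 in the Dek_fl libraries and 76, 90 and 33 in the Dek_cKO libraries. Per list these were 0.126%, 0.117% and 0.160% of all peaks in Dek_fl and 0.107%, 0.123% and 0.121% in Dek_cKO. The log2 ratio of geometric means was 0.033, small against the spread of 0.69 (pooled SD of the log2 numbers), with 0.15 within replicates 1 and 2 and -0.20 within replicate 3. It turned to -0.29 when Dek_fl replicate 3 was left out, to -0.13 or -0.25 when Dek_cKO replicate 1 or replicate 2 was, and rose to 0.48 without Dek_cKO replicate 3. When each list was cut to its 23809 peaks of highest -log10 p, the numbers were 33, 35 and 38 in Dek_fl and 30, 32 and 29 in Dek_cKO, so the ratio turned to -0.22 and the groups no longer overlapped. The margin was small, from 32 to 33 peaks. Bcl2 supplied 3, 3 and 4 of these peaks in Dek_fl and 2 in each Dek_cKO library. No share over other gene sets was computed, and over so few peaks that difference was given no test.

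**Figure D4:**
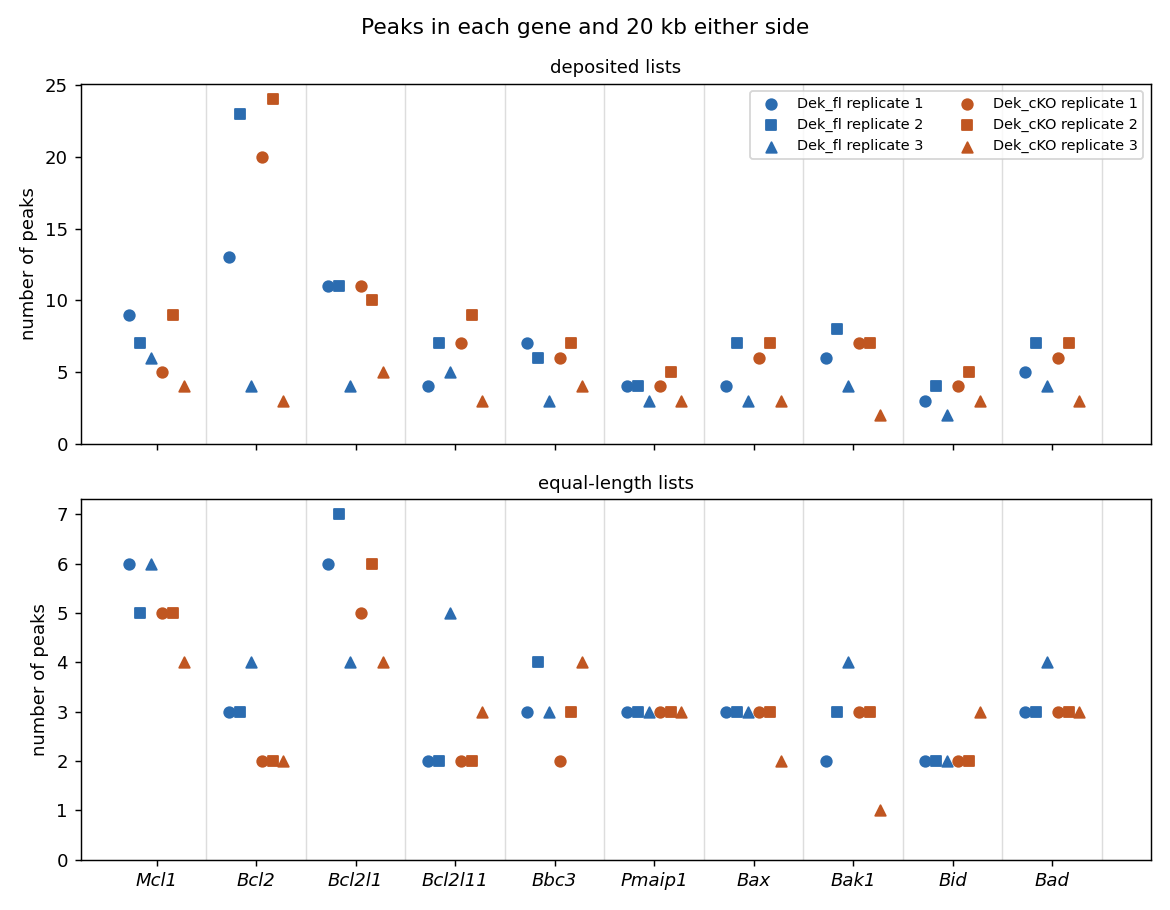
Number of peaks in each gene with 20 kb either side (y axis) in the deposited lists (upper panel) and in lists cut to 23809 peaks (lower panel); colours and marks as for the start-site percentiles. Bcl2 varies from 3 to 24 in the deposited lists, and in the equal-length lists its Dek_fl libraries hold 3, 3 and 4 peaks and its Dek_cKO libraries 2 each.

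Gene by gene, the numbers of peaks in the deposited lists overlapped between the groups for all 10 members: 0 had Dek_cKO wholly above (0.134% of protein-coding genes) and 0 had Dek_fl wholly above (0.00925%). In the equal-length lists 1 of the 10 had every Dek_fl library above every Dek_cKO library, where 0.365% of protein-coding genes did, and 0 had the reverse (0.199%). This was Bcl2, with 3, 3 and 4 peaks in the Dek_fl libraries and 2 in each Dek_cKO library. The region 26.1 kb into the gene was left in Dek_fl replicates 1 and 2 and in 0 Dek_cKO lists, and the region at 86.9 kb was left in all lists other than Dek_cKO replicate 2. In the deposited lists the first of these was called in 2 Dek_fl and 3 Dek_cKO libraries, so this separation depends on where the lists were cut.

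Of 12 other family members, 6 had a start-site peak in all 6 libraries, a share near the 50.4% of all protein-coding genes. These were Bcl2l2, Bok, Bmf, Bcl2l12, Bcl2l13 and Bcl2l14. Bcl2a1a, Bcl2l10 and Hrk had a peak in 0 libraries at a start site, and Bcl2a1b, Bcl2a1d and Bik, the remaining 3, in 2 to 4. The Bcl2a1 genes are near-identical copies, at which the mapping of reads is uncertain. Of 17 genes acting around or after the mitochondrion, among them Apaf1 and Casp9 of the apoptosome, Cycs (cytochrome c), the inhibitor Xiap and Trp53, all 17 had a start-site peak in all 6 libraries, against 50.4% of protein-coding genes. Among those with a shared start-site region, limma found 0 past the threshold or at an unadjusted p under 0.05, and their windows held 0 regions called in 3 libraries of a group and 0 of the other.

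By Euclidean distance in percentile of fold over the 6 libraries, among 10211 other start-site regions, the regions closest to that of Mcl1 were those of Pcdh17 (10.8 points), Fermt3 (10.8) and Nadk (11.6). For Bcl2 they were those of Hvcn1 (14.3), Hrh3 (14.5) and Epb41l1 (15.8).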

How the data were processed

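Each of the 6 lists holds peaks of 1 library, not pooled. The submitters' processing notes name mm10, Bowtie2, Picard and MACS2, while versions, settings and any Tn5 shift were not given in the sources used here. In the deposited files the authors give each peak a score, a fold ratio of the summit over local background, a -log10 p-value and a -log10 q-value, set within the list, and a summit position. These columns served to order, filter and describe peaks inside 1 list. Positions count from 1.

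Peaks on chromosomes 1 to 19 and X that shared at least 1 bp were merged into regions, and the peak of highest fold stood for a region in a library. Start sites came from the RefSeq promoter table (either gene end where a gene had no entry). The motifs were searched in the 250 bases before each start. The text names all members, their start-site region, most of the 3 further regions each of highest mean percentile, some other regions chosen after their values were seen, and listed pathway genes. limma 3.58.1 (R 4.3.3) was fitted without a block and tested on simulated data; Python 3.11.15 did the rest. The members and lists were chosen with earlier results of these data known. Alternatives were ranking by -log10 p, a replicate block, a batch term, equal-length lists, -log10 q of at least 10, other windows and overlaps, and leaving out each library.

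Same-numbered libraries deviated together from their group means over the 19683 shared regions (correlations of 0.27, 0.52 and 0.74 for replicates 1, 2 and 3). The replicate number served as a block in an alternative fit, and the main fit used no pairing. Within replicates 1 and 2, crossed numbers correlated as well (0.31 and 0.57). The values thus set replicate 3 apart but do not show which libraries of replicates 1 and 2 belong together.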

Additional observations from a re-analysis of the deposited data

How the results depend on the processing

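With the replicate block, by pairing on the replicate number, 1 region of the genome was called higher by limma in place of 0, and it was not a member region; this block changed no other call, and under the other alternatives 0 regions were called in either direction. Differences at the start sites stayed past no threshold. Some changed sign: Mcl1 turned to 0.0039 in equal-length lists and 0.046 at -log10 q of at least 10, Bcl2 to -0.016 and Bcl2l11 to -0.075 over regions called in at least 4 libraries, and Bcl2l1 to 0.15 and Bbc3 to 0.016 when ranked by -log10 p. Leaving out each library in turn moved Mcl1 from -0.35 to 0.22, Bcl2 from -0.20 to 0.34, Bcl2l1 from -0.50 to 0.46 and Bcl2l11 from -0.25 to 0.22. It moved Bbc3 from -0.53 to 0.33, Pmaip1 from -0.037 to 0.38, Bax from -0.97 to 0.13 and Bak1 from -0.90 to 0.14. Bid stayed between -0.52 and -0.29 and Bad between -0.56 and -0.32. Over the genome, regions called in every library of one group and 0 of the other numbered 88 for Dek_cKO and 3 for Dek_fl. They numbered 51 and 1 at -log10 q of at least 10 and 40 and 72 in equal-length lists. Leaving out 1 library gave 95 to 2492 for Dek_cKO and 4 to 275 for Dek_fl. In the member windows the counts of 0 became 1 for Dek_cKO without Dek_cKO replicate 3 (85.5 kb into Bcl2) and 1 for Dek_fl without Dek_fl replicate 1 (5.6 kb past Mcl1), and ranged from 0 to 1 over the libraries left out. The 1 member region with Dek_cKO percentiles above Dek_fl became 0 in equal-length lists. Members with a start-site peak in all 6 libraries numbered 7 in equal-length lists and 7 at -log10 q of at least 10, where replicate 3 or Dek_cKO replicate 1 lacked the peak of Bax, Bak1 or Bbc3. The cause of these changes was not tested. Read depth is unknown, so a region without a call may still be open, and no interval can be given for a call.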
